A study of Mus musculus with 16 samples.

Results

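The 29 genes described here encode 20 enzymes that build cholesterol from acetyl-CoA, 4 proteins that set the activity of the transcription factor SREBP2, and 5 proteins that carry, esterify or release cholesterol. They were taken by gene symbol from the 56832 genes of the deposited liver table. No rule on measured values picked them, but earlier results of these data were known when they were chosen. All 29 passed the filter on low values (a mean of at least 3 over the 16 libraries), as did 15128 genes in all. The livers came from 4 mice each of L-DKO (Gclc f/f Nrf2 f/f), Gclc L-KO (Gclc f/f), Nrf2 L-KO (Nrf2 f/f) and WT, the last given as Gclc wt/wt in the series text. Mice were at least 12 weeks old, and every group, WT included, received AAV-TBG-Cre by tail vein 3 weeks before the liver was taken. This virus expresses Cre recombinase from a hepatocyte promoter, so other liver cells keep both genes in all groups. The series text gives the dose in plaque-forming units and the methods give it in genome copies.

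Hepatocytes make much of the body's cholesterol. Acetyl-CoA is turned into mevalonate, then into farnesyl diphosphate, squalene and lanosterol, and lanosterol is trimmed, reduced and isomerised to cholesterol. When sterols are scarce, SCAP escorts SREBP2 to the Golgi, where it is cut and released to activate genes of this pathway and of cholesterol uptake. When sterols are plentiful, INSIG proteins hold SCAP and SREBP2 in the endoplasmic reticulum, and oxysterols add to that brake. The question put to the genes was how their RNA differs when GCLC, which carries the catalytic site of the rate-limiting enzyme for glutathione, NRF2, the antioxidant transcription factor, or both are deleted in hepatocytes.

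Values are rlog values, a log2 measure in which counts are adjusted for library size and drawn toward the gene's average, so differences are on a log2 scale and can understate the change of weakly expressed genes. The median of the tested genes was 8.33 to 8.38 in the 16 libraries, and the depth per library is unknown from these values. The targeted gene did not follow every label. *Gclc* was 11.45, 11.44, 11.33 and 11.66 in L-DKO, 13.01, 12.81, 13.84 and 14.06 in Gclc L-KO, 12.92, 12.67, 12.59 and 13.00 in Nrf2 L-KO and 13.00, 12.96, 13.40 and 13.52 in WT, so it was lower than in WT in L-DKO but not in the libraries labelled Gclc L-KO. *Nfe2l2*, the gene of NRF2, was 12.29 to 13.24 in L-DKO, 11.57 to 12.05 in Gclc L-KO, 11.89 to 12.54 in Nrf2 L-KO and 11.54 to 11.62 in WT, hence not lower in either group labelled for its deletion. A value per gene need not show the loss of an exon. *Nqo1*, a classical NRF2 target, was 8.18 to 8.98 in L-DKO, 11.82 to 12.79 in Gclc L-KO, 7.35 to 8.35 in Nrf2 L-KO and 8.05 to 9.16 in WT, which sets the libraries labelled Gclc L-KO apart from all others. Genotype names below are those of the labels. In every genotype *Xist* was above 14 in replicates 1 and 2 and under 9 in replicates 3 and 4, and *Ddx3y* ran the other way, so changes are also given within these replicate pairs. No label states whether the mice were male or female.

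Promoters were read to show which short elements the members share. RefSeq promoter windows of 300 bases, 250 before and 50 after the start site, were at hand for 23 of the 29 members. CCAAT, the box bound by NF-Y, stood on either strand in at least 1 window of 21 of these 23 genes, against 42.6% of the 11146 tested genes with a window. The SREBP element, searched as TCACNCCAC on both strands, stood in 1 of the 23, *Hmgcs1*, against 1.50% of tested genes. Elements that differ from this pattern in any fixed letter or lie outside the window were not counted. Members without a window were not searched, so the count does not show which members lack the element. The core of the antioxidant response element, searched as TGACNNNGC on both strands, stood in 5 of the 23 (*Mvk*, *Pmvk*, *Hsd17b7*, *Dhcr7* and *Soat1*), against 16.6% of tested genes. GGGCGG on either strand stood in 21 of the 23, against 65.1% of tested genes. Matches of different motifs were counted separately even where they overlap, and a match is a description of letters, not of binding. The 250 bases before the start site are printed, 5′ to 3′, for *Hmgcs1* with both elements and for 5 members whose RNA is described in every library below. Capitals mark CCAAT or its reverse complement ATTGG, and in *Hmgcs1* also the SREBP element.
Hmgcs1 (GRCm38.p6, chr13:119690101-119690350, plus strand): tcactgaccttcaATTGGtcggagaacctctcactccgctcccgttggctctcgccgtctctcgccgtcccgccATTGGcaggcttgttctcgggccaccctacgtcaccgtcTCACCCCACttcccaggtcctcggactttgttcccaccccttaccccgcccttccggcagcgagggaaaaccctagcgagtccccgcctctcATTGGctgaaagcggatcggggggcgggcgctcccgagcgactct
Mvd (GRCm38.p6, chr8:122443423-122443672, minus strand): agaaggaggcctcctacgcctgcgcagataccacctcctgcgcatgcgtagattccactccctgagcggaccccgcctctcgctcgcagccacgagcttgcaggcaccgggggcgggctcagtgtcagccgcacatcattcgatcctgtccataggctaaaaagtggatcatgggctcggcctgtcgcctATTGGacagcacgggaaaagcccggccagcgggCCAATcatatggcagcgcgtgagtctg
Lss (GRCm38.p6, chr10:76531355-76531604, plus strand): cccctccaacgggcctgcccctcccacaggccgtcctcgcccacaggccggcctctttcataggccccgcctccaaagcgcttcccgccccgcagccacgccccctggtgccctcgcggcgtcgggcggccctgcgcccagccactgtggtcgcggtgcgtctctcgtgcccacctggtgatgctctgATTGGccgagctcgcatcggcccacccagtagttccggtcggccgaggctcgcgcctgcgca
Nsdhl (GRCm38.p6, chrX:72918271-72918520, plus strand): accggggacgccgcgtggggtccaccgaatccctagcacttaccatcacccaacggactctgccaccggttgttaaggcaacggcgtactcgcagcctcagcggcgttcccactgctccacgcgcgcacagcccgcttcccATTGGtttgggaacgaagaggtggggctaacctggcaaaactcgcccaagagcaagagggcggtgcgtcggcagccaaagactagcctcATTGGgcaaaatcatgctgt
Sc5d (GRCm38.p6, chr9:42264301-42264550, minus strand): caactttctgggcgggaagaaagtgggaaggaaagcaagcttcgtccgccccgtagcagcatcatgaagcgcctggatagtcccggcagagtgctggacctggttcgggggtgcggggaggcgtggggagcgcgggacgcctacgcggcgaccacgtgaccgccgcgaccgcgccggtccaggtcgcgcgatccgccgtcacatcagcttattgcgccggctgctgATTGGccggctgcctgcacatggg
Insig1 (GRCm38.p6, chr5:28071162-28071411, plus strand): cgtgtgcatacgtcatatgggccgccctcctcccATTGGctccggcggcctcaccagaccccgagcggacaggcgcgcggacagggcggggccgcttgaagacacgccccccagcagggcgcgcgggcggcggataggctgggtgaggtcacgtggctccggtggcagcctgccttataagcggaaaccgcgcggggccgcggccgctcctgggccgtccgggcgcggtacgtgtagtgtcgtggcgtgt
In *Hmgcs1* the SREBP element began 137 bases before the start site. CCAAT boxes began 60 and 27 bases before it in *Mvd*, 62 in *Lss*, 109 and 20 in *Nsdhl*, 24 in *Sc5d* and 216 in *Insig1*. No window of *Scap* or *Acat2* held CCAAT, and *Pmvk*, *Dhcr7* and *Insig2* had windows with it and windows without it.

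RNA of the cholesterol pathway was lower than in WT in the libraries labelled L-DKO and in those labelled Gclc L-KO, and no member passed the test in Nrf2 L-KO. In L-DKO 13 of the 29 members were lower and 0 were higher, where 6.17% of all tested genes were lower and 3.79% were higher, and the members' median log2 fold change was -0.58. In Gclc L-KO 14 were lower and 1 was higher, where 12.4% of all tested genes were lower and 10.6% were higher, with a median of -0.51. Of the 20 enzymes 11 were lower in L-DKO and 10 in Gclc L-KO. Over all tested genes the median was 0.0019 in L-DKO and 0.0030 in Gclc L-KO. In 15 members every L-DKO library lay below every WT library, as in 9.43% of all tested genes, and in 10 members every Gclc L-KO library did, as in 13.3%. Both comparisons share the 4 WT livers, so their values are given side by side and no overlap between them is drawn. In bulk liver, fewer cells of a type and less RNA per cell cannot be told apart.

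**Figure D1:**
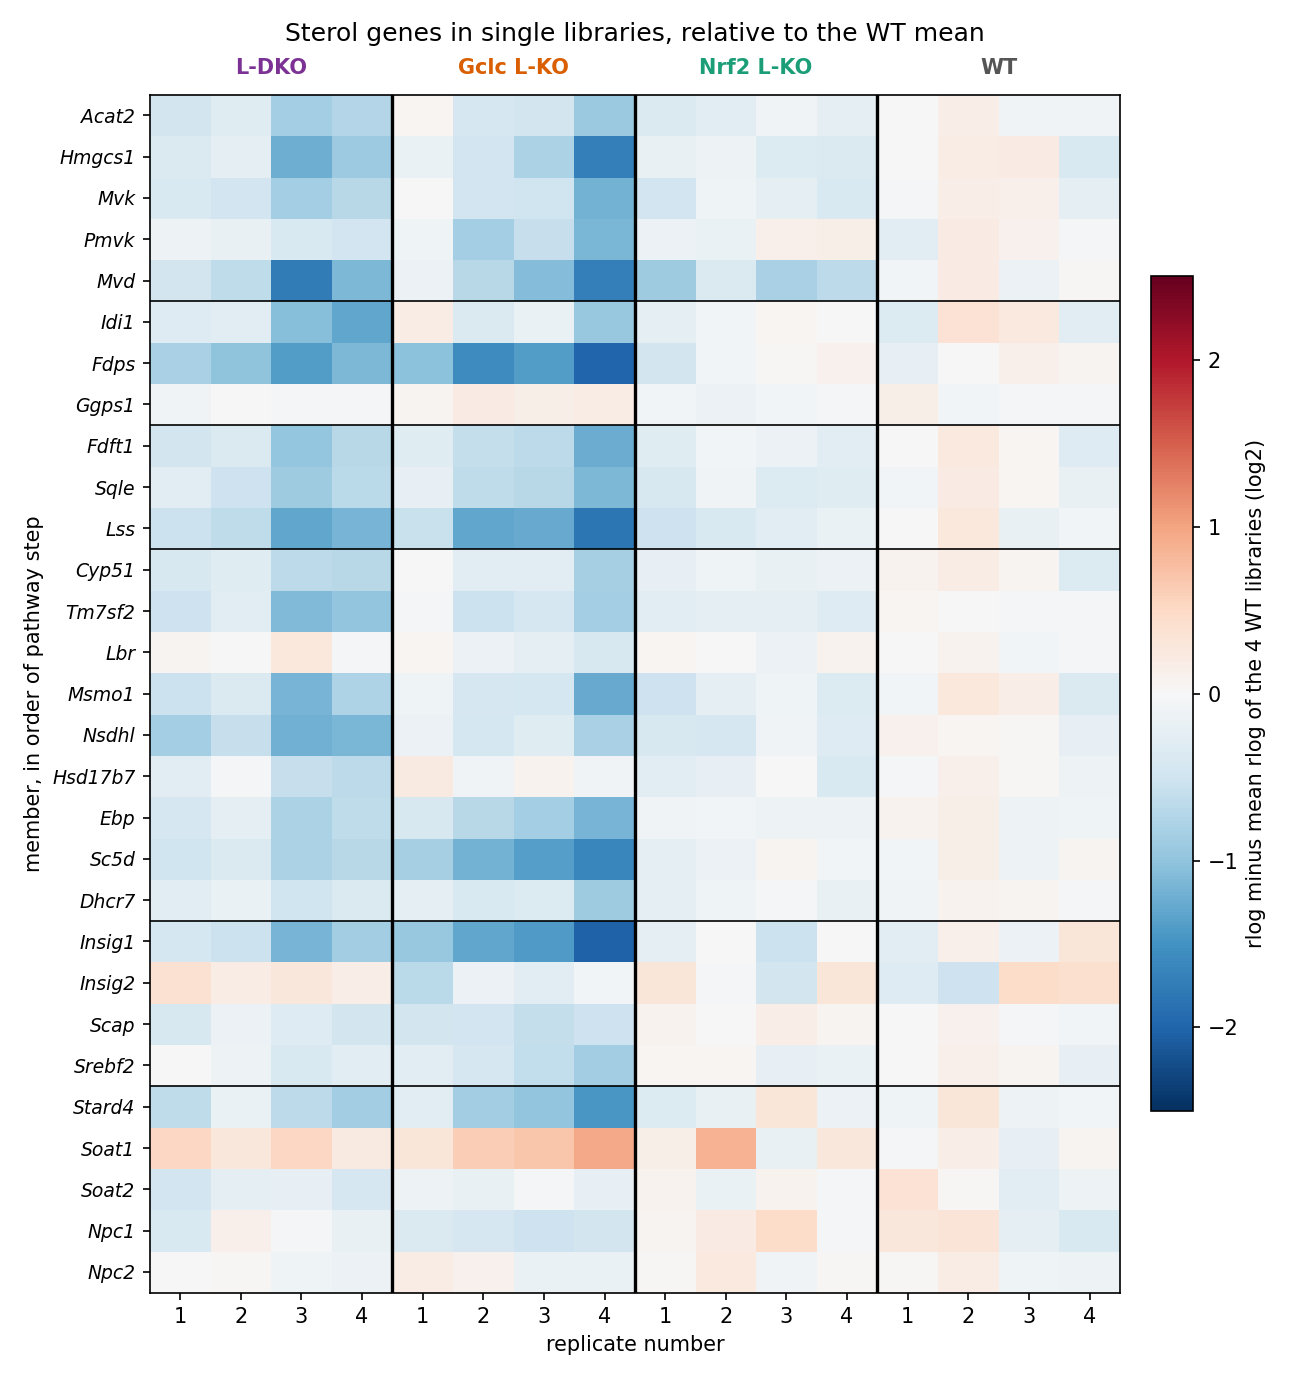
Heat map of the rlog value of the 29 members (rows, in order of pathway step, black lines between steps) in each of the 16 libraries (columns, by genotype and replicate number) minus the mean of the 4 WT libraries, on a log2 scale from -2.5 to 2.5. Most enzymes are blue in L-DKO and Gclc L-KO, deepest in Gclc L-KO replicate 4 and in L-DKO replicates 3 and 4, and Gclc L-KO replicate 1 is close to WT for many.

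The first 5 genes turn acetyl-CoA into isopentenyl diphosphate by way of mevalonate, and 2 of the 5 were lower in L-DKO and 2 in Gclc L-KO. *Mvd*, the mevalonate diphosphate decarboxylase, had rlog values of 9.77, 9.59, 8.48 and 9.11 in L-DKO, 10.08, 9.53, 9.15 and 8.51 in Gclc L-KO, 9.34, 9.86, 9.43 and 9.58 in Nrf2 L-KO and 10.15, 10.43, 10.08 and 10.26 in WT. Every L-DKO and Nrf2 L-KO library lay below every WT library, and Gclc L-KO replicate 1 reached the WT range. The log2 fold change against WT was -0.99 ± 0.30 (SE) in L-DKO (adjusted p = 0.0464), -0.91 ± 0.30 in Gclc L-KO (adjusted p = 0.0381) and -0.68 ± 0.30 in Nrf2 L-KO (adjusted p = 0.720). With 1 of the 16 libraries left out in turn, the *Mvd* call ended in 12 of 16 fits for L-DKO and in 7 of 16 for Gclc L-KO. Among the other 4 genes of this stretch, *Acat2*, which condenses acetyl-CoA, averaged 10.37 in L-DKO, 10.53 in Gclc L-KO, 10.73 in Nrf2 L-KO and 10.96 in WT and was lower in L-DKO (-0.59, adjusted p = 0.0386), a call that ended in 8 of 16 such fits. *Pmvk*, the phosphomevalonate kinase, was lower in Gclc L-KO (-0.67, adjusted p = 0.0158), with -0.29 in L-DKO (adjusted p = 0.302). *Hmgcs1*, which makes HMG-CoA, was -0.68 in L-DKO (adjusted p = 0.126) and -0.78 in Gclc L-KO (adjusted p = 0.0569) and did not pass. With the replicate pair as a covariate *Hmgcs1* passed in both (adjusted p = 0.0364 in L-DKO and 0.0126 in Gclc L-KO). *Mvk*, the mevalonate kinase, lay just outside the threshold in both (-0.60, adjusted p = 0.0574 in L-DKO, and -0.55, adjusted p = 0.050 in Gclc L-KO), and inside it with that covariate (adjusted p = 0.0244 in L-DKO and 0.0241 in Gclc L-KO).

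The isoprenoid steps held the largest fall. *Fdps*, the farnesyl diphosphate synthase at the branch to sterols, dolichol and ubiquinone, had 8.76, 8.55, 8.17 and 8.44 in L-DKO, 8.55, 7.99, 8.17 and 7.58 in Gclc L-KO, 9.11, 9.50, 9.59 and 9.67 in Nrf2 L-KO and 9.36, 9.57, 9.70 and 9.63 in WT. All 8 libraries of L-DKO and Gclc L-KO lay below all 8 of Nrf2 L-KO and WT. On the log2 scale *Fdps* fell by 1.09 ± 0.18 in L-DKO (adjusted p = 0.00384) and fell by 1.49 ± 0.18 in Gclc L-KO (adjusted p = 1.19e-04), and both calls held with any 1 of the 16 libraries left out. *Ggps1*, which makes geranylgeranyl diphosphate for protein prenylation and stands off the sterol route, averaged 8.46 in L-DKO, 8.66 in Gclc L-KO, 8.44 in Nrf2 L-KO and 8.51 in WT and passed in no comparison. *Idi1*, the isopentenyl diphosphate isomerase, was -0.74 in L-DKO (adjusted p = 0.0784) and -0.33 in Gclc L-KO (adjusted p = 0.380).

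All 3 genes from farnesyl diphosphate to the closed ring were lower in both genotypes. *Lss*, the lanosterol synthase that closes the sterol ring, had 11.30, 11.20, 10.53 and 10.68 in L-DKO, 11.29, 10.53, 10.58 and 10.03 in Gclc L-KO, 11.31, 11.46, 11.56 and 11.67 in Nrf2 L-KO and 11.83, 12.10, 11.64 and 11.78 in WT. Its L-DKO and Gclc L-KO libraries overlapped each other and lay below all of WT, and Nrf2 L-KO reached into the WT range. The change was -0.91 ± 0.22 in L-DKO (adjusted p = 0.0223) and -1.23 ± 0.22 in Gclc L-KO (adjusted p = 0.00182). *Fdft1*, the squalene synthase, was -0.62 in L-DKO (adjusted p = 0.0416) and -0.70 in Gclc L-KO (adjusted p = 0.0129), and *Sqle*, the squalene epoxidase, was -0.59 (adjusted p = 0.0368) and -0.67 (adjusted p = 0.0107). The Gclc L-KO calls of all 3 genes held with any 1 library left out, while in L-DKO the call ended in 9 of 16 fits for *Fdft1*, 5 for *Sqle* and 3 for *Lss*.

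From lanosterol to cholesterol, 5 of 9 genes were lower in L-DKO and 4 of 9 in Gclc L-KO. *Sc5d*, the sterol C5 desaturase, had 14.28, 14.42, 13.98 and 14.07 in L-DKO, 13.94, 13.59, 13.40 and 13.13 in Gclc L-KO, 14.56, 14.63, 14.85 and 14.71 in Nrf2 L-KO and 14.70, 14.91, 14.64 and 14.84 in WT. The 4 groups fell into a plain order, with all Gclc L-KO libraries lowest, all L-DKO libraries above them and all Nrf2 L-KO and WT libraries higher still. Its change against WT was -0.58 ± 0.15 in L-DKO (adjusted p = 0.0268) and -1.25 ± 0.15 in Gclc L-KO (adjusted p = 9.78e-05). *Nsdhl*, the sterol C4 decarboxylase, had 10.96, 11.23, 10.62 and 10.67 in L-DKO, 11.67, 11.36, 11.50 and 11.01 in Gclc L-KO, 11.41, 11.40, 11.73 and 11.50 in Nrf2 L-KO and 11.93, 11.86, 11.85 and 11.61 in WT. L-DKO lay below every Nrf2 L-KO and WT library, and Gclc L-KO spanned from the L-DKO range into that of WT. *Nsdhl* was -0.94 ± 0.15 in L-DKO (adjusted p = 0.00259), a call that held with any 1 library left out, and -0.43 ± 0.15 in Gclc L-KO (adjusted p = 0.0497), a call that ended in 11 of 16 such fits.

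*Tm7sf2*, a sterol C14 reductase, had 11.65, 11.89, 11.06 and 11.18 in L-DKO, 12.13, 11.62, 11.73 and 11.32 in Gclc L-KO, 11.88, 11.91, 11.91 and 11.83 in Nrf2 L-KO and 12.21, 12.18, 12.12 and 12.13 in WT. It separated L-DKO and Nrf2 L-KO from WT without overlap, at -0.72 ± 0.17 in L-DKO (adjusted p = 0.0188) and -0.28 ± 0.17 in Nrf2 L-KO (adjusted p = 0.802), and was -0.46 in Gclc L-KO (adjusted p = 0.0624). *Lbr*, the lamin B receptor, which carries the same C14 reductase activity, averaged 8.81 in L-DKO, 8.57 in Gclc L-KO, 8.75 in Nrf2 L-KO and 8.75 in WT and passed in no comparison. *Ebp*, the sterol isomerase, had 12.27, 12.44, 11.90 and 12.06 in L-DKO, 12.29, 12.00, 11.85 and 11.53 in Gclc L-KO, 12.61, 12.62, 12.56 and 12.56 in Nrf2 L-KO and 12.78, 12.84, 12.56 and 12.58 in WT. Both L-DKO and Gclc L-KO were below all WT libraries, at -0.52 ± 0.14 (adjusted p = 0.0326) and -0.77 ± 0.14 (adjusted p = 0.00185). *Cyp51*, the lanosterol demethylase, was lower in L-DKO (-0.52, adjusted p = 0.0463), and *Dhcr7*, the 7-dehydrocholesterol reductase, in Gclc L-KO (-0.46, adjusted p = 0.0117). With 1 library left out, the L-DKO call ended in 12 of 16 fits for *Cyp51*, 5 for *Ebp*, 4 for *Sc5d* and 2 for *Tm7sf2*. *Msmo1*, the C4 methyl oxidase, was -0.71 in L-DKO (adjusted p = 0.0577) and -0.56 in Gclc L-KO (adjusted p = 0.0844), and *Hsd17b7*, the 3-keto sterol reductase, was -0.38 (adjusted p = 0.0635) and 0.03 (adjusted p = 0.888).

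**Figure D2:**
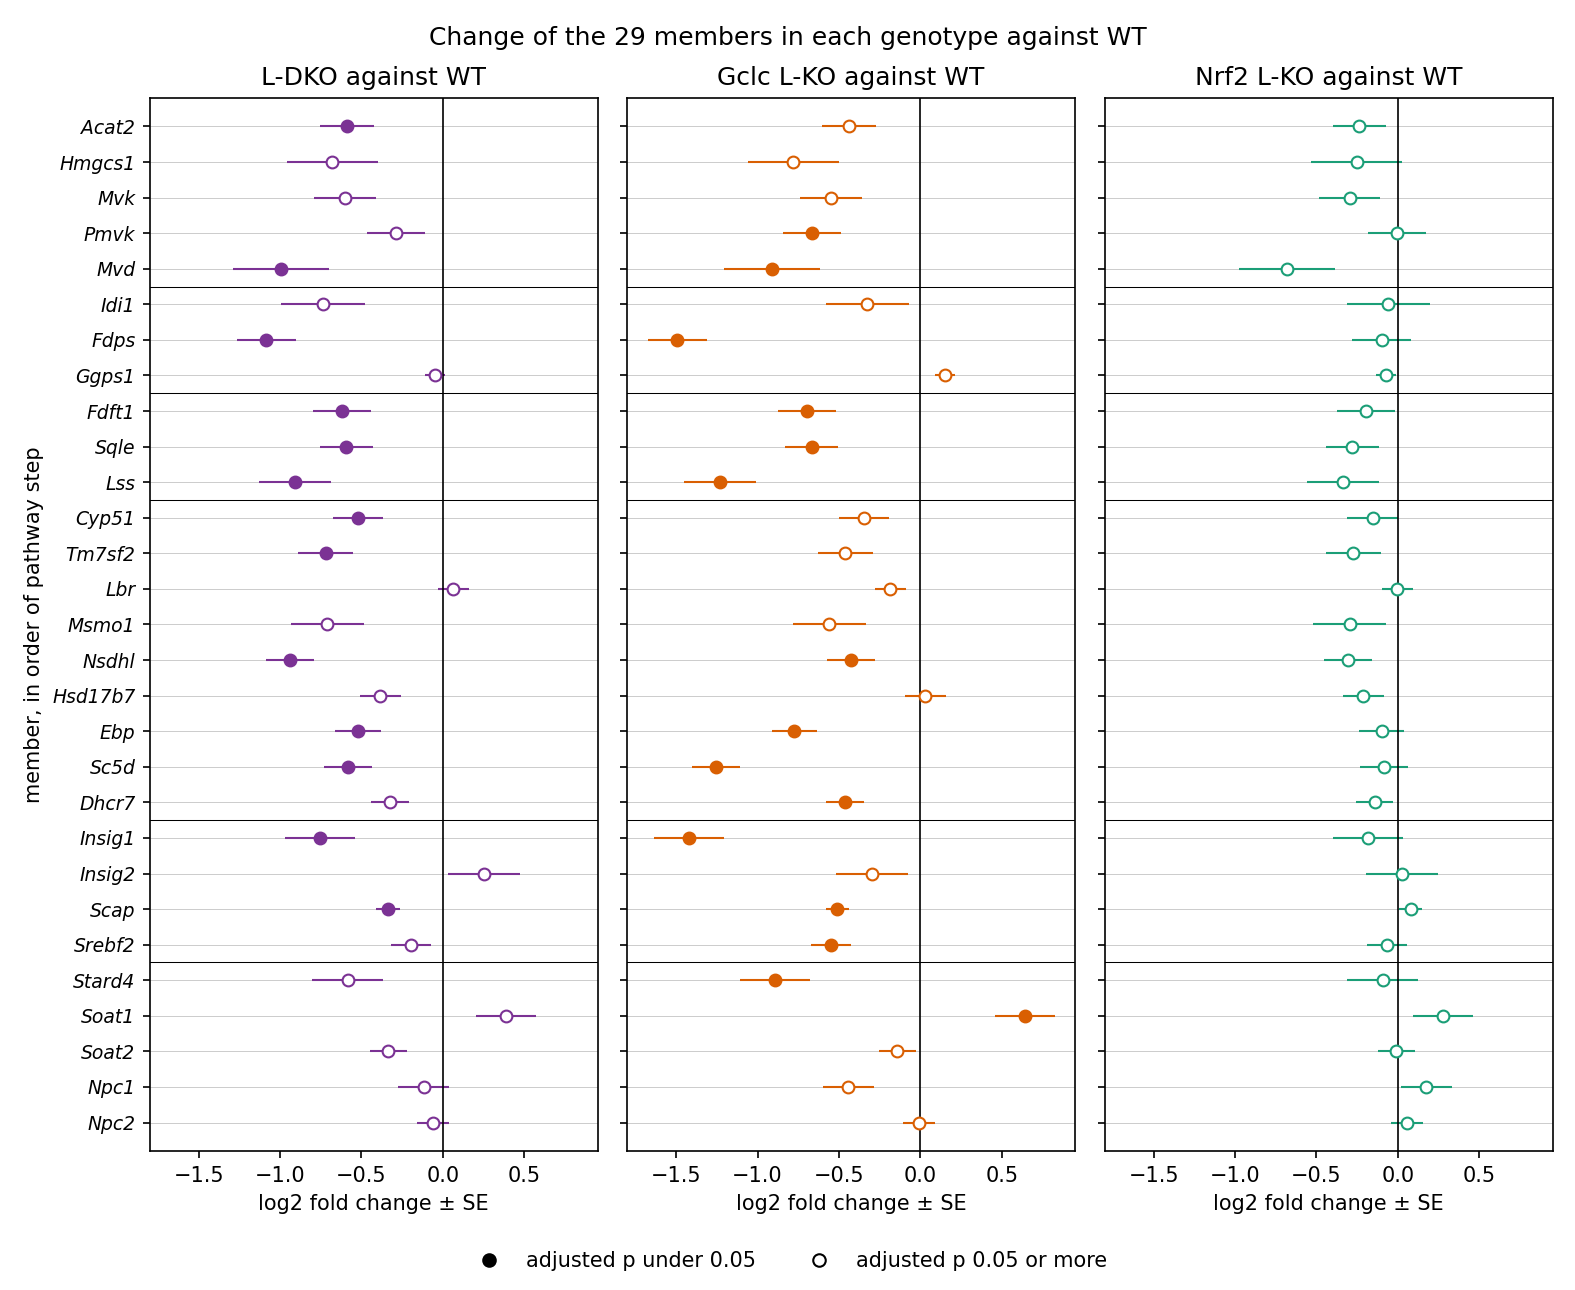
Log2 fold change ± SE of each member against WT (rows in order of pathway step), for L-DKO, Gclc L-KO and Nrf2 L-KO, with filled points where the limma adjusted p over all 15128 genes was under 0.05. The L-DKO panel has 13 filled points below 0, the Gclc L-KO panel has 14 below 0 and 1 above, and the Nrf2 L-KO panel has 0.

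The genes that control SREBP2 did not fall in step. *Insig1*, which holds SCAP back and is itself a target of SREBP2, had 13.00, 12.91, 12.27 and 12.57 in L-DKO, 12.49, 12.13, 12.03 and 11.43 in Gclc L-KO, 13.21, 13.46, 12.91 and 13.45 in Nrf2 L-KO and 13.16, 13.58, 13.29 and 13.74 in WT. All L-DKO and Gclc L-KO libraries were below all WT libraries, and L-DKO overlapped Nrf2 L-KO. The change was -0.76 ± 0.22 in L-DKO (adjusted p = 0.0415) and -1.42 ± 0.22 in Gclc L-KO (adjusted p = 5.96e-04), and with 1 library left out the L-DKO call ended in 8 of 16 fits and the Gclc L-KO call in 0. *Insig2*, the second INSIG gene, had 12.79, 12.58, 12.69 and 12.56 in L-DKO, 11.72, 12.25, 12.12 and 12.33 in Gclc L-KO, 12.71, 12.36, 11.94 and 12.70 in Nrf2 L-KO and 12.07, 11.89, 12.85 and 12.80 in WT. WT was split, with replicates 3 and 4 above replicates 1 and 2, and the change did not pass in L-DKO (0.25 ± 0.22, adjusted p = 0.479) or Gclc L-KO (-0.30 ± 0.22, adjusted p = 0.347).

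*Scap*, the escort of SREBP, had 11.88, 12.14, 11.96 and 11.83 in L-DKO, 11.84, 11.81, 11.69 and 11.78 in Gclc L-KO, 12.39, 12.28, 12.46 and 12.36 in Nrf2 L-KO and 12.29, 12.40, 12.26 and 12.22 in WT. It split the 16 libraries with no overlap, L-DKO and Gclc L-KO below and Nrf2 L-KO and WT above. Its falls of 0.34 ± 0.07 in L-DKO (adjusted p = 0.0119) and 0.51 ± 0.07 in Gclc L-KO (adjusted p = 3.20e-04) were small in size, exceeded their SE several times over and held with any 1 library left out, though the L-DKO call ended after quantile normalization and with only the genotypes compared. *Srebf2*, which encodes SREBP2, had 11.17, 11.04, 10.79 and 10.89 in L-DKO, 10.89, 10.74, 10.54 and 10.30 in Gclc L-KO, 11.21, 11.22, 10.96 and 11.01 in Nrf2 L-KO and 11.16, 11.30, 11.24 and 10.96 in WT. Every Gclc L-KO library was below every WT library and L-DKO overlapped WT, at -0.55 ± 0.12 in Gclc L-KO (adjusted p = 0.00658) and -0.20 ± 0.12 in L-DKO (adjusted p = 0.309). RNA of *Srebf2* and *Scap* does not measure the cut, active form of SREBP2.

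Of the 5 genes of transport, esterification and lysosomal export, 0 passed in L-DKO, while in Gclc L-KO 1 was lower and 1 higher. *Stard4*, a carrier of cholesterol in the cytosol, had 11.72, 12.18, 11.70 and 11.47 in L-DKO, 12.09, 11.48, 11.37 and 10.90 in Gclc L-KO, 12.00, 12.17, 12.65 and 12.21 in Nrf2 L-KO and 12.25, 12.65, 12.22 and 12.28 in WT. All L-DKO and Gclc L-KO libraries lay below all WT libraries, at -0.59 ± 0.22 in L-DKO (adjusted p = 0.0920) and -0.89 ± 0.22 in Gclc L-KO (adjusted p = 0.00980). *Soat1*, a cholesterol acyltransferase of macrophages and many other cells, had 8.03, 7.79, 8.03 and 7.74 in L-DKO, 7.81, 8.12, 8.21 and 8.46 in Gclc L-KO, 7.66, 8.37, 7.33 and 7.80 in Nrf2 L-KO and 7.48, 7.67, 7.31 and 7.57 in WT, and is given in full because it was the sole member called higher, a choice made after its values were seen. All L-DKO and Gclc L-KO libraries were above all WT libraries, as in 8.16% of all tested genes for L-DKO and 13.3% for Gclc L-KO, and Nrf2 L-KO spread across both ranges. The change was 0.39 ± 0.18 in L-DKO (adjusted p = 0.181) and 0.64 ± 0.18 in Gclc L-KO (adjusted p = 0.0225), a call that ended in 4 of 16 fits with 1 library left out.

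*Soat2*, the acyltransferase of hepatocytes and intestine, had 9.82, 10.06, 10.10 and 9.87 in L-DKO, 10.17, 10.11, 10.26 and 10.09 in Gclc L-KO, 10.39, 10.13, 10.38 and 10.26 in Nrf2 L-KO and 10.67, 10.33, 10.04 and 10.17 in WT. It was -0.34 ± 0.11 in L-DKO (adjusted p = 0.0707) and -0.14 ± 0.11 in Gclc L-KO (adjusted p = 0.388), with WT overlapping both. *Npc1*, which exports cholesterol from lysosomes, had 11.83, 12.35, 12.18 and 12.03 in L-DKO, 11.85, 11.79, 11.70 and 11.76 in Gclc L-KO, 12.28, 12.42, 12.67 and 12.19 in Nrf2 L-KO and 12.50, 12.54, 11.98 and 11.84 in WT. Gclc L-KO was low and narrow while WT was split by replicate pair, and the change was -0.12 ± 0.16 in L-DKO (adjusted p = 0.661) and -0.44 ± 0.16 in Gclc L-KO (adjusted p = 0.0532). *Npc2*, which hands cholesterol to NPC1, had 11.07, 11.12, 10.98 and 10.94 in L-DKO, 11.28, 11.20, 10.92 and 10.93 in Gclc L-KO, 11.11, 11.34, 11.01 and 11.12 in Nrf2 L-KO and 11.13, 11.28, 10.99 and 10.97 in WT. Its groups overlapped throughout, at -0.06 ± 0.10 in L-DKO and -0.01 ± 0.10 in Gclc L-KO (adjusted p = 0.729 and 0.966).

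**Figure D3:**
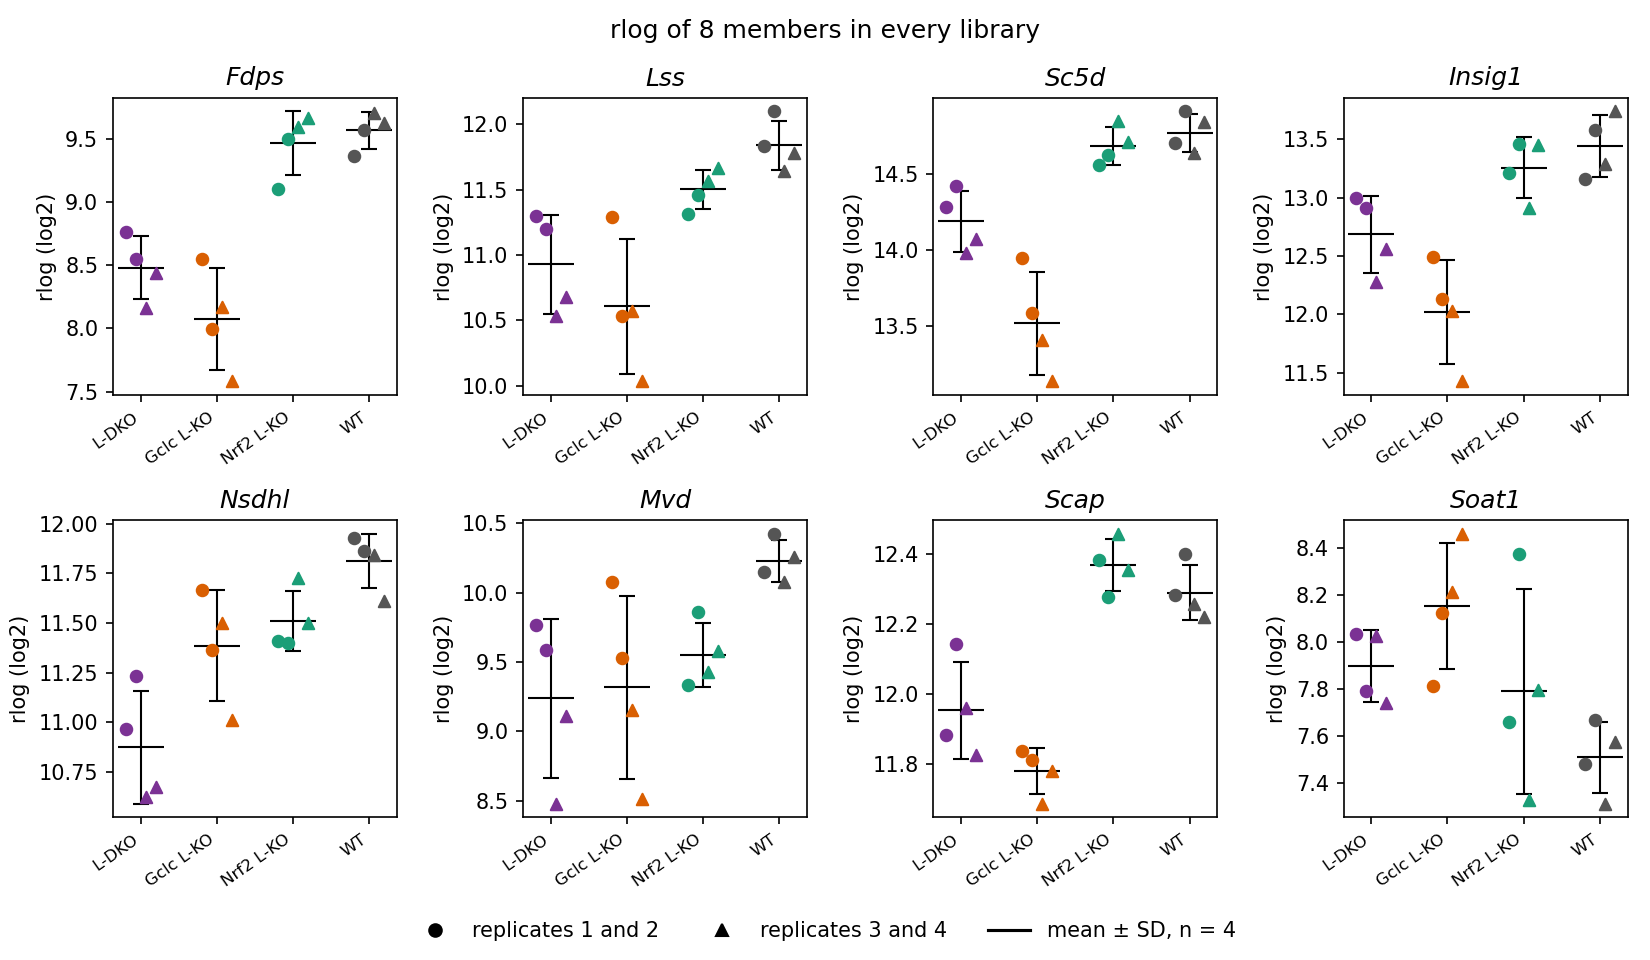
rlog values (log2 scale) of 8 members in every library, by genotype, with circles for replicates 1 and 2, triangles for replicates 3 and 4, and the mean ± SD of 4 libraries in black. *Fdps* and *Scap* split L-DKO and Gclc L-KO from Nrf2 L-KO and WT with no overlap, *Sc5d* lies between in L-DKO, and *Soat1* runs the other way.

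In Nrf2 L-KO 0 of 29 members passed, where limma called 0.126% of all tested genes lower and 0.0132% higher, and 1 member had an unadjusted p under 0.05. The fold changes of all 20 enzymes were below 0, with a median of -0.20, against -0.0047 over all tested genes. These enzymes were measured in the same livers, so their signs are not independent and do not establish a fall. *Mvd* and *Tm7sf2*, 2 members, separated from WT without overlap, as did 2.70% of all tested genes. A p that misses the threshold does not show that the levels were equal.

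L-DKO was then set against Gclc L-KO, to ask how the members stood when *Nrf2* was deleted as well. *Sc5d* was higher in L-DKO by 0.67 ± 0.15 (adjusted p = 0.0123), a call that held with any 1 library left out but not with only the 2 genotypes in the fit, and *Nsdhl* was lower by -0.51 ± 0.15 (adjusted p = 0.0439), a call that ended in 11 of 16 such fits. These were 1 member higher and 1 lower of 29, where 3.84% of all tested genes were higher and 4.80% were lower. The counts are near those shares and are no result about the members as a set. *Insig1* was 0.67 ± 0.22 (adjusted p = 0.0718), *Insig2* 0.55 ± 0.22 (adjusted p = 0.139) with no overlap between the groups, as in 6.88% of all tested genes in that direction, *Srebf2* 0.35 ± 0.12 (adjusted p = 0.0925) and *Ggps1* -0.20 ± 0.06 (adjusted p = 0.0624), again with no overlap, as in 7.03% of all tested genes in that direction. With the replicate number as a block, *Srebf2* passed as higher (adjusted p = 0.0175) and *Hsd17b7* as lower (-0.41, adjusted p = 0.0331, against 0.0544 without the block), which made 2 members higher and 2 lower. The median over the members was 0.08. Without Gclc L-KO replicate 1, the library nearest to WT, 6 members were higher. The share of all tested genes is not given for this fit or for the block, so neither count is a result about the members.

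Against Nrf2 L-KO, 3 members were lower in L-DKO, where 2.61% of all tested genes were lower and 2.65% higher. They were *Fdps* (-0.99 ± 0.18, adjusted p = 0.00885), *Nsdhl* (-0.64 ± 0.15, adjusted p = 0.0262) and *Scap* (-0.42 ± 0.07, adjusted p = 0.00555). In 10 of 29 members every L-DKO library lay below every Nrf2 L-KO library, as in 6.64% of all tested genes. The interaction, that is the change of L-DKO from Nrf2 L-KO minus that of Gclc L-KO from WT, was called by limma for 0 members, where 0.463% of all tested genes were below and 0.225% above, and 3 members had an unadjusted p under 0.05. Its largest member values were 0.85 ± 0.31 for *Insig1* (adjusted p = 0.231) and 0.76 ± 0.21 for *Sc5d* (adjusted p = 0.132), so a difference between the Gclc deletion with and without *Nrf2* was not shown for any member.

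The libraries of a genotype differed from each other. Averaged over the 20 enzymes, the difference from the WT mean came to -0.40, -0.35, -0.86 and -0.75 in L-DKO replicates 1 to 4, -0.18, -0.57, -0.58 and -1.08 in Gclc L-KO, -0.31, -0.17, -0.15 and -0.19 in Nrf2 L-KO and -0.04, 0.15, 0.02 and -0.14 in WT. Thus L-DKO replicates 3 and 4 were lower than replicates 1 and 2, and Gclc L-KO ranged from near WT to below every other library. The median SD of an enzyme over 4 libraries was 0.25 in L-DKO, 0.38 in Gclc L-KO, 0.12 in Nrf2 L-KO and 0.15 in WT. Against the WT of the same pair, L-DKO had 1 member lower within replicates 1 and 2 and 19 within replicates 3 and 4, where 1.68% and 14.1% of all tested genes were lower, with medians of -0.43 and -0.66. Gclc L-KO had 8 and 19, where 5.37% and 16.2% of all tested genes were lower, with medians of -0.38 and -0.63. Nrf2 L-KO had 0 and 0, where 0.145% and 0.529% of all tested genes were lower. The difference between the pairs was itself called by limma for 0 members in all 3 comparisons, where 2.39% of all tested genes were called below and 1.94% above 0 in L-DKO, 0.674% and 0.225% in Gclc L-KO and 0% in Nrf2 L-KO. The count of 13 in L-DKO fell to 3 without L-DKO replicate 3 and to 3 without L-DKO replicate 4, to 4 without WT replicate 2, to 7 without WT replicate 1 or 3, and to 8 without Gclc L-KO replicate 2 or 3, and *Fdps*, *Nsdhl* and *Scap* were the 3 that passed in all 16 fits. With the replicate pair as a covariate, 18 members were lower in L-DKO and 20 in Gclc L-KO. The Gclc L-KO count of 14 ranged from 11 without its replicate 4 to 21 without its replicate 1. For the fits with the covariate or with 1 library left out, the share of all tested genes is not given. Moves of these counts therefore cannot be read as particular to the members.

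**Figure D4:**
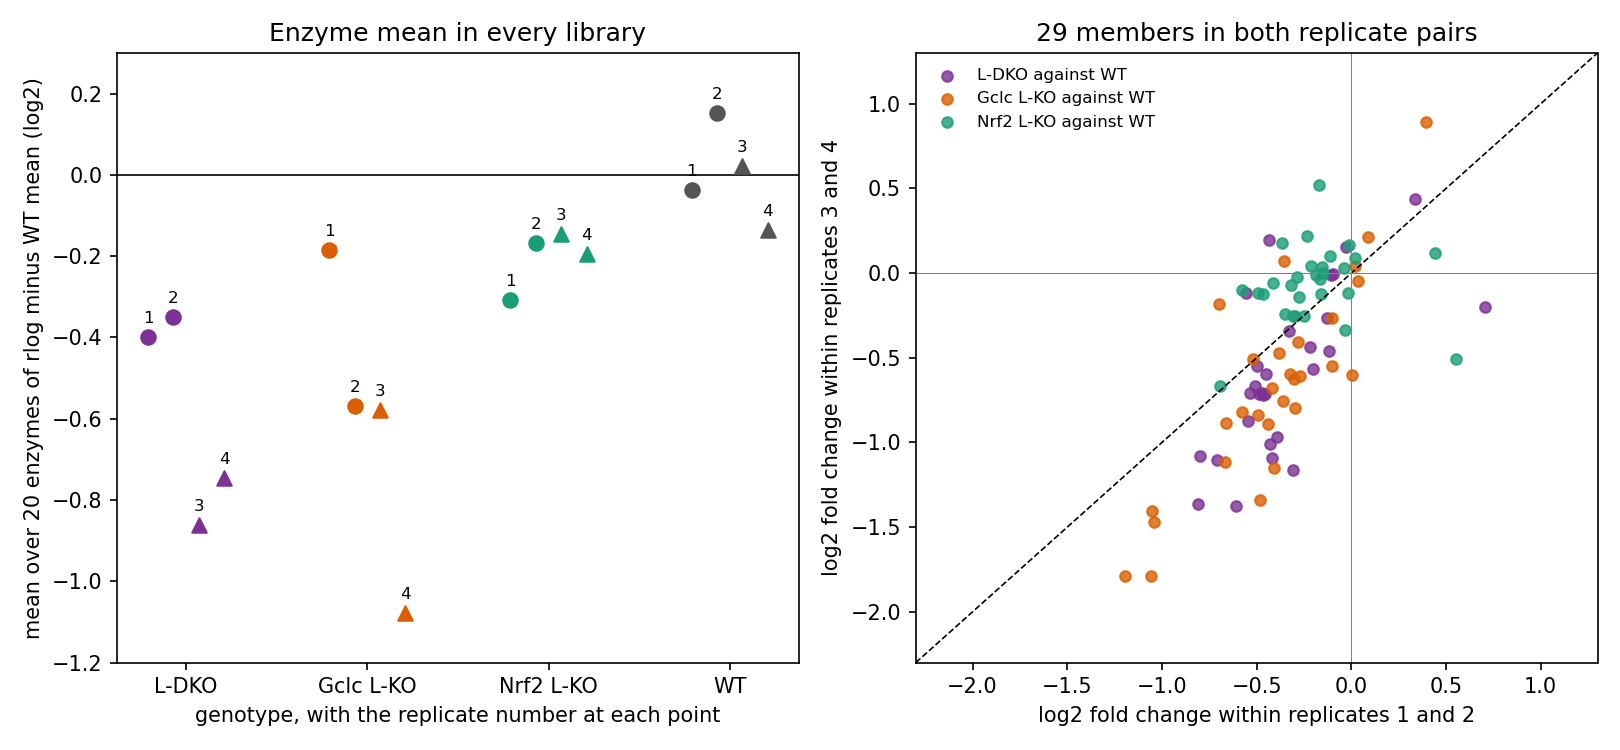
Left, mean over the 20 enzymes of rlog minus the WT mean (log2) in each library, by genotype with the replicate number at each point. Right, log2 fold change of each of the 29 members against WT within replicates 1 and 2 (x) and within replicates 3 and 4 (y), where points under the dashed line of equality are further below 0 in replicates 3 and 4, as were 23 of 29 in L-DKO and 23 of 29 in Gclc L-KO.

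Markers of the liver's cell types also differed between these groups. The mean rlog of 5 hepatocyte markers (*Alb*, *Ttr*, *Cps1*, *Asgr1* and *Hnf4a*) was 16.03 to 16.50 in L-DKO, 15.51 to 16.27 in Gclc L-KO, 16.49 to 16.64 in Nrf2 L-KO and 16.56 to 16.65 in WT, so every L-DKO and every Gclc L-KO library lay below every WT library. All 5 had a fold change below 0 in both comparisons, with a median of -0.26 in L-DKO and -0.42 in Gclc L-KO. Of the 5, 1 passed as lower in L-DKO (*Asgr1*, -0.57) and 1 in Gclc L-KO (*Cps1*, -1.67). Of all tested genes 6.17% and 12.4% were lower, so 1 call among 5 genes is no result about the list. In L-DKO 1 and in Gclc L-KO 3 lay below WT without overlap, as did 9.43% and 13.3% of all tested genes. *Alb*, which encodes albumin, averaged 21.10 in L-DKO, 20.21 in Gclc L-KO, 21.40 in Nrf2 L-KO and 21.32 in WT. The mean of 8 Kupffer cell and macrophage markers was 9.91 to 10.58 in L-DKO, 9.98 to 10.64 in Gclc L-KO, 9.41 to 10.69 in Nrf2 L-KO and 9.31 to 9.68 in WT. Of these 8, 2 were higher in L-DKO and 4 in Gclc L-KO, where 3.79% and 10.6% of all tested genes were higher. In L-DKO replicates 1 to 4 the hepatocyte mean was 16.38, 16.50, 16.03 and 16.17, lower in the replicates 3 and 4 whose enzyme means were also lower. By library, for replicates 1 to 4 of Gclc L-KO, the hepatocyte mean was 16.27, 16.11, 15.72 and 15.51 and the macrophage mean 9.98, 10.44, 10.37 and 10.64, beside *Soat1* at 7.81, 8.12, 8.21 and 8.46. Of 22 markers of endothelium, stellate cells, bile duct, lymphocytes and neutrophils limma called 0 in L-DKO or Gclc L-KO, and none of the marker genes was at 0. The part of these markers in the members' changes was not tested.

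A further list held 18 measured genes of sterol metabolism outside the members. Against WT, 3 of 18 were lower and 0 higher in L-DKO, where 6.17% of all tested genes were lower, while Gclc L-KO had 5 lower and 1 higher, where 12.4% were lower and 10.6% were higher. Their median log2 fold change was -0.21 in L-DKO and -0.15 in Gclc L-KO. *Acly*, which makes cytosolic acetyl-CoA from citrate, was -0.73 in L-DKO (adjusted p = 0.0416) and -1.19 in Gclc L-KO (adjusted p = 0.00161). *Aacs*, which makes acetoacetyl-CoA from acetoacetate, was -1.57 in Gclc L-KO (adjusted p = 0.00838) and -1.01 in L-DKO (adjusted p = 0.0882). *Mbtps2*, the protease of the second cut of SREBP, was higher in Gclc L-KO (0.46, adjusted p = 0.00803), and *Tmem97*, a sterol-responsive membrane protein that binds NPC1, was lower in L-DKO (-0.39, adjusted p = 0.0224).

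In the branches that draw isoprenoids away from sterols (dolichol, ubiquinone, haem A and protein prenylation), 1 of 14 genes was lower in L-DKO, and in Gclc L-KO 1 was lower and 2 were higher. These counts are near the shares of all tested genes (6.17% lower in L-DKO, and, for Gclc L-KO, 12.4% lower with 10.6% higher) and are no result about the branches. *Rabggta*, a subunit of the enzyme that prenylates Rab proteins, was -0.27 in L-DKO (adjusted p = 0.0275) and -0.40 in Gclc L-KO (adjusted p = 0.00133). *Coq2*, the prenyltransferase of ubiquinone synthesis, was higher in Gclc L-KO (0.21, adjusted p = 0.0183). The median of the 14 genes was -0.05 in L-DKO and 0.03 in Gclc L-KO, against -0.60 and -0.55 for the 20 enzymes.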

How the data were processed

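The authors deposited a table of DESeq2 rlog values, log2 counts scaled between libraries, made from stranded poly(A) RNA libraries of 16 livers. Tools listed in the submitters' processing notes, with no role or order, were DESeq2 1.34.0, R 3.5.1, STAR 2.7.9a, bcl2fastq 2.20.0, Subread 2.0.1, featureCounts and fastp, and the genome build was GRCm39. Counts and depth cannot be had from these log2 values, so no count model was run. Of 56832 genes, 26656 were 0 in every library, and the 15128 with a mean rlog of at least 3 were tested.

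One fit with limma 3.58.1 in R 4.3.3 (1 mean per genotype, eBayes with a trend) gave all comparisons, two-sided, with Benjamini-Hochberg adjusted p over all tested genes and a threshold of 0.05. A second fit with a mean per genotype and replicate pair gave changes within pairs. Labels do not say whether libraries of a genotype share a litter, so p-values measure only the spread between these libraries, and no 2 libraries held identical values. The labels state no pairing of replicate numbers, and the main fit used none. The deviations of same-numbered libraries had all 4 correlations over 0.1 between L-DKO and Gclc L-KO, between Gclc L-KO and Nrf2 L-KO and between Nrf2 L-KO and WT. Yet 6 of 16 libraries correlated best with their own number, so pairing by number is not established. The replicate number served as a block in an alternative fit. The procedure was tested on simulated data. Per-library values are given for members called in a comparison of the 2 *Gclc* deletions with WT or with each other and among the 8 largest changes there, and for *Srebf2*, *Scap*, both INSIG genes, *Soat2*, *Npc1* and *Npc2*. Up to 4 called genes with the largest change were to be named from each other list. Of the genes this rule would name, 3 are not reported here. From the list of 19 other sterol genes, 1 was not found by its symbol, and *Mbtps2* and *Tmem97* were named after their values were seen. The members and lists were chosen with earlier results of these data known. Alternatives were other filters (none, or a mean of at least 6), quantile normalization, libraries centred on their medians, array weights, robust eBayes or eBayes without a trend, the replicate number as a block, the replicate pair as a covariate, only the genotypes compared, and leaving out each library. Promoters came from RefSeq (GRCm38.p6) by symbol, a different build from that of the files, so their coordinates were not joined to the table. Plots used matplotlib 3.10.9 (Python 3.11.15).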

Additional observations from a re-analysis of the deposited data

Results flagged for a closer look

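Of the 116 groups of 4 libraries (29 members in 4 genotypes), 2 held a library far from the other 3, where chance alone gives about 1 in 20. A count of 2 in 116 is below that rate, so the 2 libraries are described and are no result. *Ggps1* was 8.66 in WT replicate 1, against 8.45 to 8.47 in the other WT livers. *Stard4* was 12.65 in WT replicate 2, against 12.22 to 12.28 in the other WT livers.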

How the results depend on the processing

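No member called in a comparison changed sign under any alternative run. In L-DKO against WT, where 13 members were lower, 6 were lower without the filter, 4 after quantile normalization, 8 with only the genotypes compared, 1 within replicates 1 and 2, and 3 to 18 with 1 library left out. In Gclc L-KO against WT, 8 were lower within replicates 1 and 2 and 11 to 21 with 1 library left out, and the 1 higher member became 2 with array weights, 0 within replicates 1 and 2 and 0 to 1 with 1 library left out. Between L-DKO and Gclc L-KO, the 1 lower member became 0 without the filter, without the trend, after centring, with only the genotypes compared and within replicates 1 and 2, 2 with quantile normalization, array weights and the replicate pair as a covariate and within replicates 3 and 4, 3 at a mean of at least 6, and 0 to 2 with 1 library left out. The 1 higher member became 3 with quantile normalization, 2 with array weights, 3 with the pair as a covariate, 0 with only the genotypes compared, 3 within replicates 3 and 4 and 1 to 6 with 1 library left out. In L-DKO against Nrf2 L-KO, the 3 lower members became 6 with the pair as a covariate, 1 with only the genotypes compared, 0 within replicates 1 and 2, 12 within replicates 3 and 4 and 2 to 6 with 1 library left out. The interaction had 0 to 1 higher members with 1 library left out. For Nrf2 L-KO against WT the count stayed at 0 in every fit run, and for the difference between replicate pairs in the 7 alternatives run for it. Centring and quantile normalization moved the median of all genes by at most 0.04. Apart from the replicate pairs set against WT, the share of all tested genes is not given for these alternatives. Where it is known, it moved too. For L-DKO against WT, limma called 1.68% of all tested genes lower in the first replicate pair (1 and 2). That share was 6.17% in the main fit and 14.1% in the second pair (3 and 4). The moves of the member counts therefore cannot be read as particular to the members, and their cause was not tested.

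Same-numbered libraries mostly deviated together, with 20 of 24 correlations over 0.1 (lowest -0.07, highest 0.55), and 6 of 16 libraries correlated best with their own number. Different-numbered libraries of the same replicate pair ranged from -0.19 to 0.61, and libraries of different replicate pairs from -0.55 to 0.15. Deviating together was thus not particular to the replicate number. All 4 same-numbered correlations were over 0.1 between L-DKO and Gclc L-KO, between Gclc L-KO and Nrf2 L-KO and between Nrf2 L-KO and WT. At least 1 was not between the other genotypes. With the replicate block, 18 members were lower in L-DKO and 20 in Gclc L-KO against WT, L-DKO had 2 lower and 2 higher against Gclc L-KO, and 4 lower against Nrf2 L-KO, while Nrf2 L-KO against WT stayed at 0. The share of all tested genes called with the block is not given, so these counts are no result about the members alone.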
